A study of Saccharomyces cerevisiae with 4 samples.

Results

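Upstream antisense starts are capped RNA 5′ ends that lie between adjacent genes of the same direction, on the strand opposite to both genes. They were counted in 1764 tandem intervals of *Saccharomyces cerevisiae*, out of 3604 intervals of 300 to 2000 bp between adjacent annotated nuclear genes of R64-1-1. An interval was tandem when both of its genes were protein-coding and on the same strand, so that the annotation alone chose the members. The genes lay on the plus strand in 926 intervals and on the minus strand in 838, and the length was 474 bp at the median, with a range from 300 to 1988 bp. Intervals are named here by the upstream and the downstream gene in the direction of transcription. The other intervals were 963 between divergent genes, 437 between convergent genes and 440 beside a gene that is not protein-coding.

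Capped 5′ ends were sequenced in 4 libraries, 2 from BY4741 and 2 from set2Δ. BY4741 is a Mat a laboratory strain with his3, leu2, ura3 and met15 auxotrophies, and the set2Δ strain carries ∆set2::kanMX4 in that same background. All cultures grew in YPD with 1% glucose at 30 °C to an optical density of 1, and the series describes the libraries of a strain as biological duplicates. A single deletion strain stood for the loss of Set2, so that a change private to this isolate cannot be told apart from the deletion. The open reading frame of SET2 held 9 and 2 sense counts in BY4741 and 0 and 1 in set2Δ.

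The promoter of a tandem gene lies close to the end of the gene before it. In yeast the nucleosome-depleted region of a promoter is often used in both directions, and the RNA that runs away from the gene crosses the end of the upstream gene on its opposite strand. Many such RNAs are short-lived because they are terminated early and degraded by nuclear exonucleases. Set2 methylates lysine 36 of histone H3 in transcribed genes, a mark that directs the Rpd3S deacetylase to gene bodies, where its loss is known for starts inside genes.

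Sequences around the most used antisense position are shown for 8 intervals, because they carry the increases, the decreases and the strongest antisense starts described here. Each line gives 50 bases before the start and 10 after it, 5′ to 3′ on the antisense strand, from the RefSeq sequence of R64. Capitals mark the base before the start and the first transcribed base. The 4 intervals that rose are given first, followed by 2 that were strongest in BY4741 and 2 that fell.
MIT1-YEA6: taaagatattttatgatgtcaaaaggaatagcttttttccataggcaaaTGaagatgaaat
NNK1-MRPL38: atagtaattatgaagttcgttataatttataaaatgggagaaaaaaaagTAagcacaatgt
CCR4-FUN26: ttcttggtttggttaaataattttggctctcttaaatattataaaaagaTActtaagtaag
PCL8-SAR1: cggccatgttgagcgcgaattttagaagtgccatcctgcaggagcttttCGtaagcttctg
YPT1-ACT1: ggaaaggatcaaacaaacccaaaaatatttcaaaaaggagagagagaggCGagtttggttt
RPL34A-FCY2: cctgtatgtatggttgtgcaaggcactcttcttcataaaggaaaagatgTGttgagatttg
PCC1-ESL2: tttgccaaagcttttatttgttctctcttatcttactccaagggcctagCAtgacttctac
RPL36B-ATG41: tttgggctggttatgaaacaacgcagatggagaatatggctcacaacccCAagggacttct

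All 8 begin with a purine after a pyrimidine, the pair preferred at yeast start sites. The windows lie at chrV:144032-144092 (minus strand) for MIT1-YEA6, chrXI:130301-130361 (minus) for NNK1-MRPL38, chrI:110606-110666 (plus) for CCR4-FUN26 and chrXVI:138405-138465 (minus) for PCL8-SAR1. Those of the strongest starts are chrVI:54923-54983 (plus) for YPT1-ACT1 and chrV:268928-268988 (plus) for RPL34A-FCY2. Those of the starts that fell are chrXI:626481-626541 (minus) for PCC1-ESL2 and chrXVI:75188-75248 (plus) for RPL36B-ATG41.

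The bases between the main antisense start and the main sense start are shown for 3 of these intervals, because the RNAs of both strands begin at opposite ends of this stretch. They read 5′ to 3′ on the strand of the genes. The first capital is the base opposite the antisense start and the last capital is the first base of the sense RNA, while inner capitals mark motif matches.
CCR4-FUN26: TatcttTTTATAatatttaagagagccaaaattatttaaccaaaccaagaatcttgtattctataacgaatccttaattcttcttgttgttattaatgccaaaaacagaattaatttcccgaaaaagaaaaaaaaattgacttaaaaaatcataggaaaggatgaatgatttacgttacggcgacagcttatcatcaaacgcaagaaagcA
PCL8-SAR1: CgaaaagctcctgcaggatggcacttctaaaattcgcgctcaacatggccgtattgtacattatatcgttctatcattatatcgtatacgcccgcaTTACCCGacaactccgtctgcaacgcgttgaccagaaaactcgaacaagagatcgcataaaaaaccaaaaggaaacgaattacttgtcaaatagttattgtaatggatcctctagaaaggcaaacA
YPT1-ACT1: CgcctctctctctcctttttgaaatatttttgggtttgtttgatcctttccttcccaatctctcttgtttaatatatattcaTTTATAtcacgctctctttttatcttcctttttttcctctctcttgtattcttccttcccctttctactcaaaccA

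These stretches are chrI:110446-110656 (minus strand, 211 bp), chrXVI:138415-138636 (plus strand, 222 bp) and chrVI:54816-54973 (minus strand, 158 bp). A or T made up 72.0% of the first, 58.6% of the second and 65.2% of the third. The inner capitals are the motif TATAAA of a TATA box, read on the antisense strand, in the first and the third, and the motif TTACCCG of the factor Reb1 in the second.

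Total counts were 452888 and 375442 for the BY4741 libraries and 1267578 and 1099482 for those of set2Δ, which were sequenced deeper. Antisense starts were sparse at this depth. A member had a median of 1 and 0 antisense counts in the BY4741 libraries, with a highest value of 132 and 102, and of 4 and 3 in the set2Δ libraries, with a highest value of 408 and 361. No antisense count was found in any library for 248 members, and 967 stayed below the 10 counts over all libraries that the test required. The test covered the other 797 members on the antisense strand and 1649 members on the sense strand. At least 1 antisense count was found in 892 and 807 members in BY4741 and in 1386 and 1309 in set2Δ. Antisense counts exceeded sense counts in 97 and 98 members in BY4741 and in 94 and 93 in set2Δ. The 10 members with the most antisense counts held 12.1% of all antisense counts of the members.

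The share of a library's tandem-interval counts that lay on the antisense strand was larger in set2Δ. Antisense counts summed to 5022 and 3753 in BY4741, beside 110921 and 93231 sense counts, and to 22704 and 18465 in set2Δ, beside 267760 and 238349. The antisense share was 4.33% and 3.87% in BY4741 (95% Wilson intervals 4.22 to 4.45% and 3.75 to 3.99%). It was 7.82% and 7.19% in set2Δ (7.72 to 7.91% and 7.09 to 7.29%). The strains did not overlap. The mean went from 4.10% ± 0.326 to 7.50% ± 0.443 (SD, n = 2), a difference of 3.40 points and a ratio of 1.83. An exact permutation test of 2 libraries against 2 gave a two-sided p of 0.333, the smallest it can give. Counts of capped ends cannot tell more initiation from slower decay of the RNA, nor more cells with an RNA from more RNA in each cell.

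**Figure D1:**
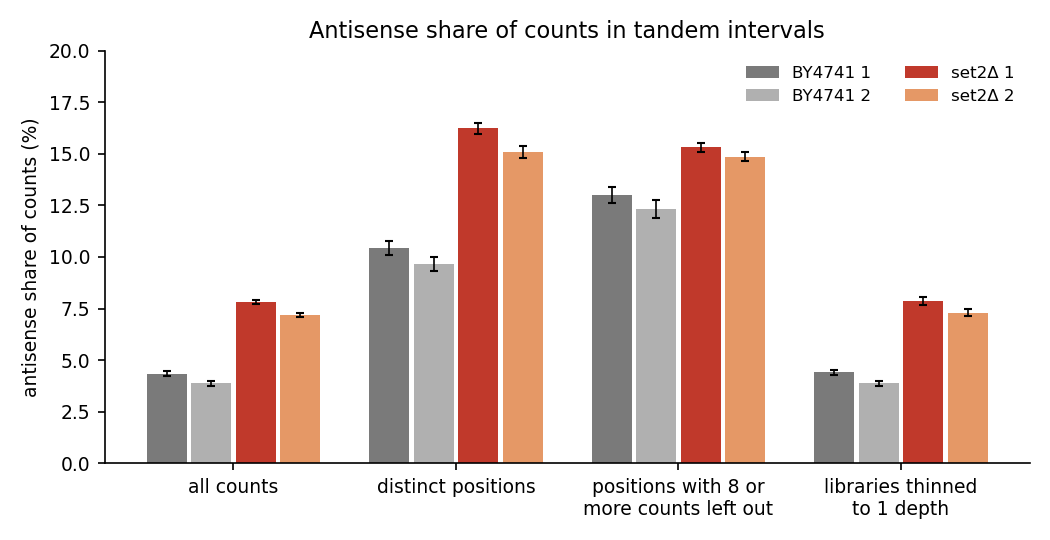
Antisense share of the counts in the 1764 tandem intervals (%) for each library, with 95% Wilson intervals that cover counting error only, from all counts and under 3 other ways of counting. The set2Δ bars stand above the BY4741 bars in each of the 4 sets, and the gap is smallest, 2.43 points, where positions with 8 or more counts were left out.

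The size of this difference depended on highly used positions. Positions with 8 or more counts held 7.89% and 5.62% of antisense counts in BY4741 and 19.4% and 18.8% in set2Δ, but 54.0% and 52.0% of sense counts in BY4741 and 60.8% and 60.4% in set2Δ. As 8 counts mark a higher level of use in the smaller BY4741 libraries, these values compare strands within a library and not strains. Without every position that reached 8 counts in any library, the share was 12.7% ± 0.488 in BY4741 and 15.1% ± 0.313 in set2Δ (SD, n = 2), a ratio of 1.19. With each used position counted once, it was 10.0% ± 0.544 and 15.7% ± 0.819, a ratio of 1.56. Used positions were taken at full depth, and the part of the deeper set2Δ libraries in this ratio was not tested. With all libraries thinned to the depth of the smallest, the antisense share of counts was 4.13% ± 0.373 and 7.58% ± 0.409, with the ratio of 1.83 found with all counts. Positions highly used in BY4741 also rose less than depth, which thinning leaves as it is. Between set2Δ replicate 1 and BY4741 replicate 2 the total counts had a ratio of 3.38. At positions of the members grouped by their count in BY4741 replicate 1, counts of these libraries had a ratio of 5.38 on the sense strand where that count was 1, of 2.02 where it was 8 to 11 and of 1.31 where it was 12 or more. The antisense ratios were 6.74, 2.45 and 1.65 in the same groups. Positions were grouped by a BY4741 library alone, so those that were higher in BY4741 gather in the upper groups. These ratios therefore cannot tell a strain difference from counts that scale less than depth. In the 5 intervals with the highest antisense level in BY4741, the main antisense position held 9 to 18 counts per BY4741 library. It held 13 to 18 counts per set2Δ library, although these were sequenced deeper. Sense starts lie at highly used positions more often than antisense starts. The smaller rise at such positions may thus bear on the antisense share and on every decrease given here, on either strand. It may also bear on strong antisense starts that were not called and on the differences of strands. Its part in all of these was not tested.

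Among the 797 tested members, antisense starts were higher in set2Δ in 231 (29%) and lower in 32 (4.02%) at an adjusted p below 0.1 by edgeR's quasi-likelihood test. Over all 5058 tested interval strands of the same fit, 29.1% were higher and 23.8% lower. The share of members called higher was thus no larger than the background, and the share called lower was 4.02% beside 23.8%. These shares come from rows of unlike coverage. Tested members had a median of 30 antisense counts over all libraries, and all 32 lower calls were among the 498 with more than 3 BY4741 counts. The background includes sense rows, which held far more counts in sum, and the part of coverage in the gap was not tested. Sense starts of the same intervals were higher in 513 of 1649 (31.1%) and lower in 475 (28.8%). Strands of divergent intervals were higher in 27.9% and lower in 32.9%, and those of convergent intervals were higher in 39.1% and lower in 3.35%. Beside a gene that is not protein-coding, 19.7% were higher and 20.9% lower. The median log2 fold change was 0.66 for antisense rows of the members, 0.13 for their sense rows and 0.22 for all rows. It was −0.01 for divergent and 1.17 for convergent intervals.

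All 231 higher members had normalized counts in both set2Δ libraries above those of both BY4741 libraries, and 30 of the 32 lower members had the reverse. With 2 libraries a strain this follows largely from the calls themselves, so it is no separate support for them. The calls came from members with few counts in BY4741 as well as from well-covered ones. Of the higher members, 56 had no antisense count in BY4741, 53 had 1 to 3, and 122 had more. The 56 tested members without a BY4741 count passed the filter through set2Δ alone and could only be higher, so that their calls are no support for a general rise, and an exact binomial test of the summed counts of each strain called 35 of them. Among the 498 tested members with more than 3 BY4741 counts, 122 were higher, 32 lower and 344 not called, and the median log2 fold change was 0.29. For members with 1 to 3 BY4741 counts the fitted value was replaced by the plain count ratio, and for members with none by the ratio to a floor of 3 counts over the strain, which gave a median of 0.57 over all tested members. For higher members it was then 1.38, and for lower members it was −1.09. In DESeq2, which left 405 of the 797 members with an adjusted p, the calls were 64 higher, all among the 231, and 11 lower. With positions of 8 or more counts left out, 95 were higher and 52 lower, and the median log2 fold change was 0.22 beside 0.14 for all rows.

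The change of the antisense strand was also set against that of the sense strand within each library, a comparison that does not depend on how libraries are scaled. A smaller rise at highly used positions does not cancel in this comparison, since sense starts lie there more often. The comparison was tested in 777 members with at least 10 counts on each strand. The antisense strand changed more in the direction of set2Δ than the sense strand in 154 (19.8%) and less in 34 (4.38%), with a median log2 difference of 0.64. Positions with 8 or more counts bore on this result too, since 61 were higher without them and the median was 0.19. Leaving out set2Δ replicate 1 left 2 higher members and leaving out set2Δ replicate 2 left 1, with 84 and 120 below an unadjusted p of 0.05. Without BY4741 replicate 1 or 2 there were 99 and 67.

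A higher antisense strand went with every kind of sense change. Of the 231 members that rose on the antisense strand, 87 also rose on the sense strand, 62 fell on it, 79 were not called and 3 were not tested. Of the 32 that fell, sense starts rose in 10, fell in 7 and were not called in 15. Of the 534 members not called on the antisense strand, sense starts rose in 156 and fell in 160. Over all 1649 tested sense strands, 31.1% rose and 28.8% fell.

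**Figure D2:**
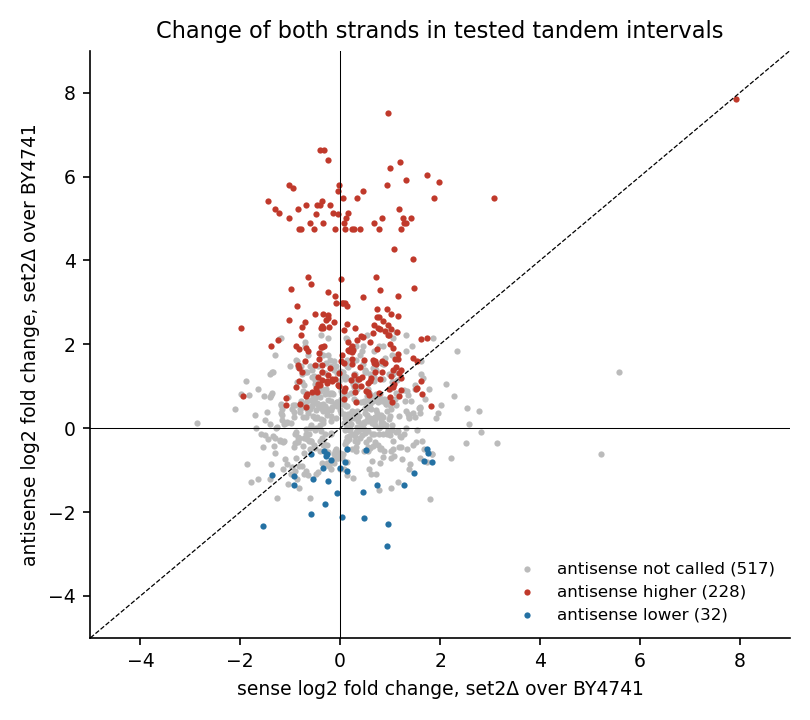
Log2 fold change of set2Δ over BY4741 on the sense strand (horizontal) and the antisense strand (vertical) for the 777 members tested on both, coloured by the antisense call, with a dashed line where both are equal. Higher members (228 points) spread over falling and rising sense strands, from −1.99 to 7.92, and the vertical place of members without any BY4741 count depends on the prior count of the fit and is no measured size.

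Antisense starts in CCR4-FUN26 rose most among the named members that had more than 3 counts in BY4741. The interval (chrI:110431-110845, genes on the minus strand) lies between the gene of the main cytoplasmic deadenylase and that of a vacuolar nucleoside transporter. Antisense counts were 2 and 2 in BY4741 and 74 and 62 in set2Δ, while sense counts were 63 and 48 in BY4741 and 89 and 98 in set2Δ. Both set2Δ libraries lay above both BY4741 libraries on the antisense strand, at 95.6 and 95.7 CPM (counts per 1000000 of all interval strands) against 8.50 and 10.5. The log2 fold change was 3.31 (standard error 0.50, adjusted p = 4.85e-10) on the antisense strand and −0.98 (adjusted p = 2.15e-06) on the sense strand, and the difference of the strands was 4.29 (adjusted p = 1.15e-11).

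In PCL8-SAR1 (chrXVI:138229-138697, plus strand) the antisense strand rose and the sense strand fell in the same way. SAR1 encodes the GTPase that starts the formation of COPII vesicles. Antisense counts were 1 and 3 in BY4741 and 60 and 43 in set2Δ, and sense counts were 154 and 133 against 278 and 249. The antisense log2 fold change was 2.91 (standard error 0.54, adjusted p = 6.63e-07), the sense log2 fold change −0.86 (adjusted p = 8.32e-08) and the difference of strands 3.76 (adjusted p = 1.50e-09). Leaving out BY4741 replicate 1 took the antisense value to 2.13 and leaving out replicate 2 took it to 4.04, with the call kept in both. The Reb1 match printed above lies between the starts of this interval.

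MIT1-YEA6 and NNK1-MRPL38 also gained antisense starts that were absent or nearly so in BY4741. MIT1-YEA6 (chrV:143893-144326, plus strand) separates a transcription factor of pseudohyphal growth from a mitochondrial NAD transporter. Its antisense counts were 0 and 0 in BY4741 and 30 and 40 in set2Δ, at least 7.0-fold higher against a floor of 3 counts over the BY4741 libraries (adjusted p = 1.24e-07). Having no BY4741 count on this strand, MIT1-YEA6 passed the filter through set2Δ alone and could only be higher. Its sense counts of 17 and 16 became 98 and 116, a log2 fold change of 0.96 (adjusted p = 0.000824). NNK1-MRPL38 (chrXI:130262-130633, plus strand) lies before the gene of a mitochondrial ribosomal protein. Its antisense counts were 1 and 1 against 46 and 39, a ratio of 12.7 with a 95% counting interval of 3.42 to 107 (adjusted p = 9.08e-07). Its sense starts fell, with a log2 fold change of −0.65 (adjusted p = 0.000124), so that sense starts moved in opposite directions in these intervals.

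The other members with the largest increases had 0 to 2 antisense counts in every BY4741 library. They were WHI3-GCR2 (0 and 1 counts in BY4741, 43 and 29 in set2Δ), CDC34-DBF4 (0 and 1, then 39 and 22) and SAG1-MRX12 (1 and 1, then 52 and 34). MRX16-YDR131C (0 and 1, then 19 and 24), SYP1-RIM1 (1 and 0, then 18 and 22) and CTT1-NNF2 (0 and 2, then 32 and 30) completed the group. Their genes have varied roles: GCR2 encodes a coactivator of glycolytic genes, DBF4 the activator of the Cdc7 replication kinase, RIM1 a mitochondrial single-strand DNA-binding protein and CTT1 the cytosolic catalase. The ratio of counts ranged from 9.30 in CTT1-NNF2, with an interval of 2.47 to 78.5, to 21.6 in WHI3-GCR2, with an interval of 3.75 to 865. Sense starts rose in WHI3-GCR2 (log2 fold change 1.07), CDC34-DBF4 (1.45), SAG1-MRX12 (0.72) and CTT1-NNF2 (1.15), fell in SYP1-RIM1 (−0.59) and were not called in MRX16-YDR131C (0.02, adjusted p = 0.985).

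ATG16-YMR158C-A (chrXIII:573332-574475, minus strand) stood apart from all of these. Neither strand had a count in BY4741, and set2Δ held 54 and 34 antisense counts with 51 and 42 sense counts. Its main antisense start lay 286 bp downstream of its main sense start, and the interval holds an annotated long terminal repeat, as 26 members do. The antisense strand was at least 8.80-fold higher (adjusted p = 1.45e-09), but it passed the filter through set2Δ alone and could only be higher. Whether the strains carry the same DNA here was not tested.

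SET2-ASG7 (chrX:101780-102226, minus strand) is the member beside the deleted gene. Its antisense starts point into the place of SET2, where set2Δ carries kanMX4, and were at 0 and 0 counts in BY4741 and 7 and 9 in set2Δ (adjusted p = 0.0274). Its sense counts were 44 and 32 in BY4741 and 57 and 36 in set2Δ, a log2 fold change of −1.44 (adjusted p = 1.82e-08). The part of the inserted marker in these values was not tested.

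**Figure D3:**
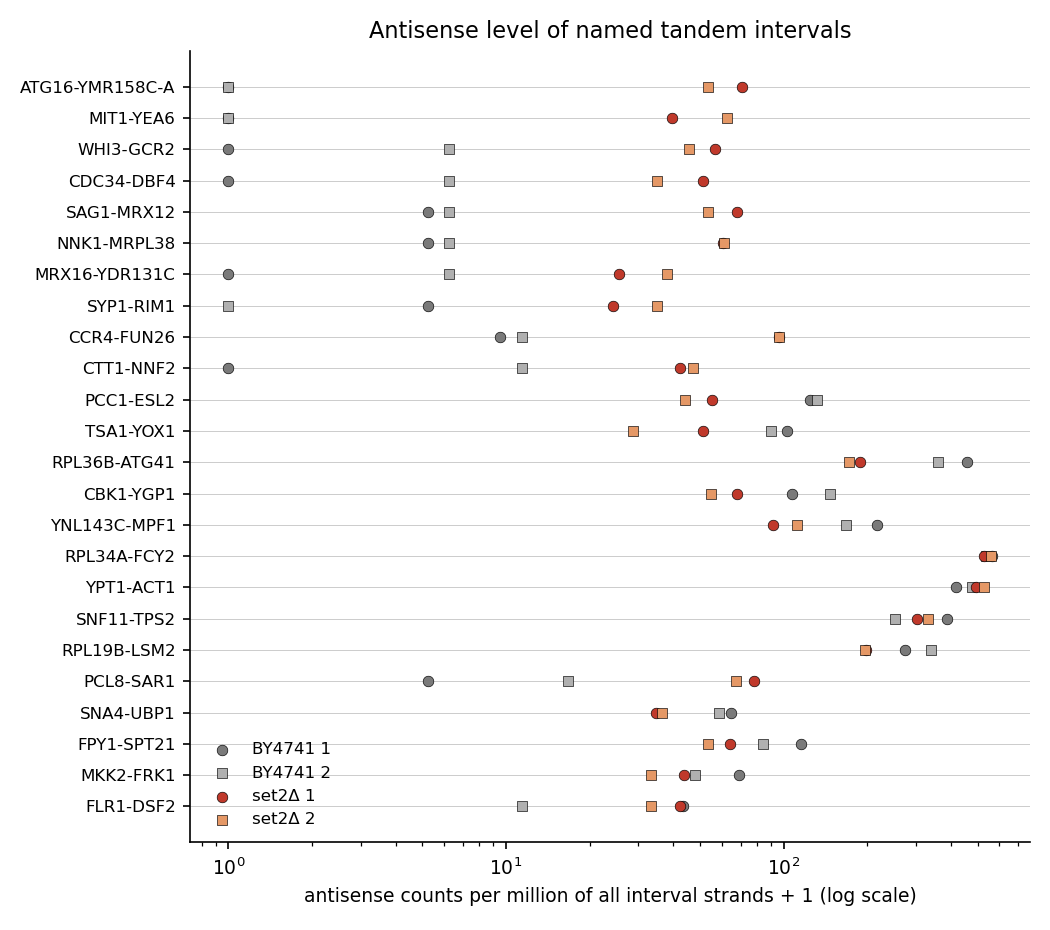
Antisense level of 24 named intervals in each library, as CPM of all interval strands plus 1 on a log axis, with circles for replicate 1 and squares for replicate 2. The grey BY4741 points lie left of the set2Δ points in the top 10 intervals and right of them in PCC1-ESL2 to YNL143C-MPF1, and the strains meet in RPL34A-FCY2.

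With the filter at 10 counts and set2Δ sequenced deeper, a decrease could be called only where BY4741 had several counts. PCC1-ESL2 (chrXI:626206-626792, plus strand) had 29 and 25 antisense counts in BY4741 and 42 and 28 in set2Δ, or 123 and 131 CPM against 54.3 and 43.2. Its antisense log2 fold change was −1.36 (standard error 0.28, adjusted p = 9.62e-06), while its sense starts rose by 1.27 (adjusted p = 0.00265). PCC1 encodes a subunit of the KEOPS complex. The strands thus moved in opposite directions, with a difference of −2.63 (adjusted p = 3.83e-05). The same held for SNA4-UBP1, before the gene of a deubiquitinase (antisense −0.82, sense 1.85, difference −2.66), and for FPY1-SPT21, before the gene of a regulator of histone genes (antisense −0.79, sense 1.68, difference −2.47). The antisense calls of the latter pair were less firm, since that of SNA4-UBP1 was lost whichever library was left out and that of FPY1-SPT21 without BY4741 replicate 1 or set2Δ replicate 2.

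RPL36B-ATG41 (chrXVI:74720-75698, minus strand) combined a strong antisense start with a decrease. RPL36B encodes a protein of the large ribosomal subunit and ATG41 a factor of autophagy. Antisense counts were 108 and 69 in BY4741 and 145 and 111 in set2Δ, which is 459 and 361 CPM against 187 and 171. The log2 fold change was −1.20 (standard error 0.17, adjusted p = 9.06e-12). Its sense starts fell by less, with −0.54 (adjusted p = 0.0126), and the difference of strands was −0.66 (adjusted p = 0.0552).

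The other named decreases were TSA1-YOX1 (24 and 17 counts in BY4741, 39 and 18 in set2Δ), CBK1-YGP1 (25 and 28, then 52 and 35) and YNL143C-MPF1 (51 and 32, then 70 and 72). TSA1 encodes a peroxiredoxin, YOX1 a homeobox repressor and CBK1 a kinase of cell separation. The antisense log2 fold changes were −1.26, −1.02 and −0.96, and sense starts were called in none of the 3, with −0.25, 0.13 and −0.35. In TSA1-YOX1 and YNL143C-MPF1 the call was lost when each used position was counted once.

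Of the 5 intervals with the highest antisense level in BY4741, 3 were not called and RPL36B-ATG41 and RPL19B-LSM2 fell. RPL34A-FCY2 (chrV:268114-269422, minus strand), before the gene of the purine-cytosine permease, had 132 and 102 antisense counts in BY4741 and 408 and 361 in set2Δ. At 561 and 533 CPM against 527 and 557 the strains overlapped, and the log2 fold change was −0.02 (adjusted p = 0.933). SNF11-TPS2 (chrIV:592949-593892, plus strand), before the gene of trehalose phosphatase, had 387 and 251 CPM in BY4741 and 301 and 332 in set2Δ, which overlap, and a log2 fold change of −0.04 (adjusted p = 0.865). RPL19B-LSM2 (chrII:169377-170622, plus strand) fell from 272 and 340 CPM to 198 and 196 (log2 fold change −0.62, adjusted p = 0.00156). This call was lost with scaling to the sense counts of the members (−0.19), with positions counted once (−0.39), with thinned libraries (−0.43) and without high positions under library totals (−0.06). Scaled to the sense counts of the members, RPL34A-FCY2 was at 0.41 and SNF11-TPS2 at 0.38, and both were then called higher. Without high positions and with library totals, RPL34A-FCY2 was at 0.996 and SNF11-TPS2 at 0.701.

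YPT1-ACT1 (chrVI:54697-55365, minus strand) is the promoter of the actin gene. Its antisense counts were 98 and 91 in BY4741 and 382 and 341 in set2Δ, beside sense counts of 610 and 565 against 769 and 613. The antisense level was 416 and 476 CPM in BY4741 and 493 and 526 in set2Δ, which do not overlap, but a log2 fold change of 0.20 was not called (standard error 0.16, adjusted p = 0.307). With library totals it was 0.42 and was called higher. The sense strand fell by 1.51 on the log2 scale (adjusted p = 1.09e-24), and the difference of strands was 1.70 (adjusted p = 1.78e-17). In the 10 bp bin at the main sense start, sense counts were 174 and 170 in BY4741 and 162 and 152 in set2Δ. The part of such highly used positions in the sense fall was not tested. DET1-TPI1 (chrIV:556473-557055, minus strand), the promoter of triose phosphate isomerase, followed the same pattern with fewer antisense counts. It had 5 and 4 antisense counts in BY4741 and 17 and 13 in set2Δ (log2 fold change −0.00, adjusted p = 1.00), and sense counts of 643 and 586 against 675 and 603 (log2 fold change −1.68, adjusted p = 4.33e-30). The difference of strands was 1.68 (adjusted p = 0.0279). The antisense direction turned with the scaling, and was 0.42 when scaled to the sense counts.

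In 2 further intervals the sense strand changed more than the antisense strand. MKK2-FRK1 (chrXVI:286062-287513, minus strand), beside the gene of a cell wall integrity kinase, had 16 and 9 antisense counts in BY4741 and 33 and 21 in set2Δ, with 9 and 4 sense counts against 84 and 71. The sense strand rose by 1.83 (adjusted p = 2.13e-06) while the antisense value of −0.62 was not called (adjusted p = 0.175), and the difference was −2.46 (adjusted p = 0.00123). FLR1-DSF2 (chrII:251017-252562, minus strand), beside the gene of a drug exporter, had 10 and 2 antisense counts against 32 and 21, which overlap as CPM, and 1 and 3 sense counts against 55 and 39. Its difference was −2.37 (adjusted p = 0.0562), and its antisense log2 fold change of 0.40 went to 1.75 without BY4741 replicate 1 and to −0.17 without BY4741 replicate 2.

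**Figure D4:**
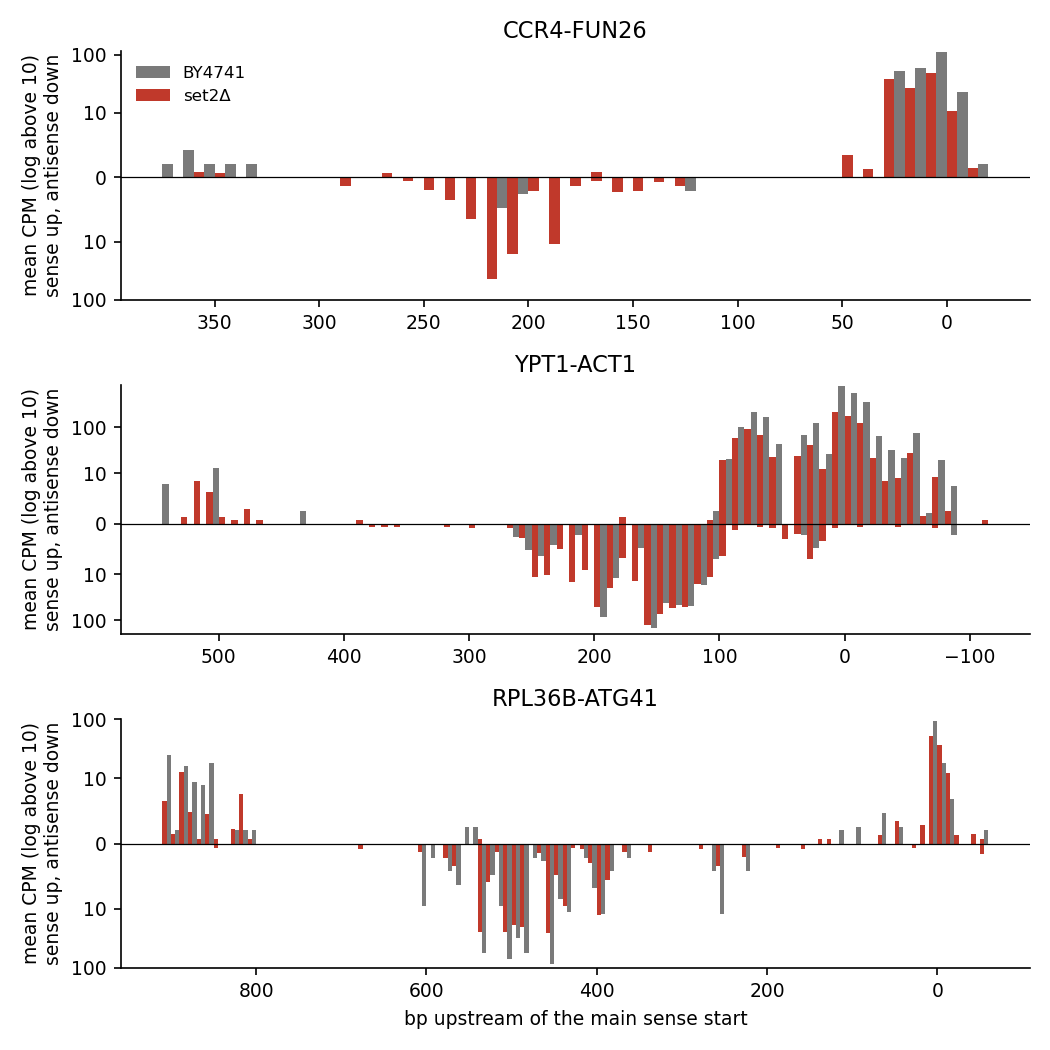
Mean CPM of BY4741 (grey) and set2Δ (red) in bins of 10 bp across 3 tandem intervals, with sense starts upward and antisense starts downward from the main sense start at 0, on an axis that is linear to 10 and logarithmic above. Antisense starts of CCR4-FUN26 are nearly all red, those of YPT1-ACT1 are alike in both strains, and those of RPL36B-ATG41 are taller in grey.

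Antisense starts peaked at a similar distance from the sense starts in all libraries. In profiles around the main sense start, the most used 25 bp bin of the antisense strand was 200 to 225 bp upstream in all 4 libraries, with 10.2% and 10.2% of the window's antisense counts in BY4741 and 11.7% and 11.9% in set2Δ. The main antisense start of a tested member was 215 bp upstream of the main sense start at the median. The median was 213 bp for the 231 higher members (quartiles 177 and 269 bp), 214 bp for members not called and 277.5 bp for lower members.

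**Figure D5:**
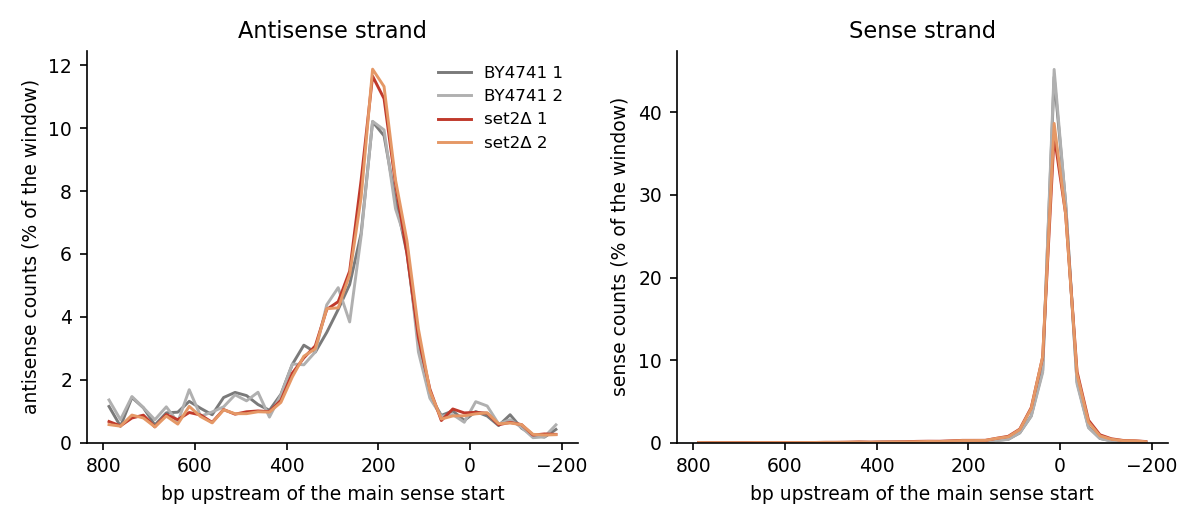
Percent of antisense (left) and sense (right) counts by distance upstream of the main sense start of each member, in bins of 25 bp from 800 bp upstream to 200 bp downstream, for each library. The antisense curves of all 4 libraries peak between 200 and 225 bp upstream, where the set2Δ curves reach 11.7% and 11.9% and the BY4741 curves 10.2%.

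The zone from 100 to 300 bp upstream of the main sense start took a larger part of antisense counts in set2Δ. It held 53.1% and 52.4% in BY4741 and 58.5% and 59.1% in set2Δ, a difference of 6.07 points between strains that did not overlap (exact permutation p of 0.333, two-sided, the smallest possible with n = 2). With each used position counted once the difference was 2.17 points. With each interval in 3 equal parts, the part at the upstream gene held 29.8% and 30.3% in BY4741 and 33.4% and 32.4% in set2Δ. The middle held 50.5% and 51.0% against 50.0% and 51.4%, which overlap, and the part at the downstream gene 19.7% and 18.7% against 16.6% and 16.2%. The main antisense start fell 100 to 300 bp upstream of the main sense start in 172 of 230 higher members (74.8%), 329 of 531 not called (62.0%) and 13 of 32 lower members (40.6%). Over all members with both starts it was 65.2%. The median interval length was 515 bp for higher members, 543 bp for those not called and 721 bp for lower ones, and its part in these shares was not tested.

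Single positions kept the start-site preference. In 200 intervals, 526 antisense positions had at least 5 counts in both set2Δ libraries, and 94.5% of them were a purine after a pyrimidine, beside 23.4% of the 1039236 antisense bases of the members. No BY4741 count was found at 78 of these positions in 58 intervals, where the preference was 94.9%. Among the 223 members with at least 10 antisense counts in each strain, the most used position was the same in both strains in 114 (51.1%) and within 10 bp in 146 (65.5%).

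The genes beside the members were compared with the same libraries. The median length of the upstream gene was 1548 bp where antisense starts rose, 1084.5 bp where they were not called and 700.5 bp where they fell. Sense starts inside genes, counted from 200 bp after the gene start, were called higher in 25% of 4726 tested genes. They were higher in 43 of 203 upstream genes of higher members (21.2%) and in 73 of 395 of members not called (18.5%). For downstream genes these were 38 of 198 (19.2%) and 88 of 453 (19.4%). Internal starts were lower in 53 upstream genes of higher members (26.1%) and 104 of members not called (26.3%), and in 30 (15.2%) and 101 (22.3%) of the downstream genes, beside 17.6% of all tested genes. The shares called higher lay below their background in either group, and the part of internal initiation in the antisense starts was not tested.

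Motifs were searched on both strands in the 150 bp before the main antisense start. The Reb1 motif TTACCCG was found in 9.96% of higher members, 5.81% of members not called and 3.13% of lower members, beside 3.29% of all 150 bp windows of all intervals. The Abf1 motif was found in 44 of 231 higher members, 23.4% of members not called and 34.4% of lower members, beside 15.3%, and TATAAA of the TATA box in 27.3%, 25.8% and 9.38%, beside 26.7%. Over whole intervals the Reb1 motif was in 13.9% of higher members and 11.4% of all intervals, and the Abf1 motif in 47.6% and 47.4%. Reb1 and Abf1 are general factors that keep promoters free of nucleosomes, and a match is a description of the sequence only. Inside the printed stretches, PCL8-SAR1 holds the Reb1 motif, and CCR4-FUN26 and YPT1-ACT1 the TATA box motif.

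Of 11 members that lie before genes of heat shock chaperones, 6 were tested and 4 were higher (29% of all tested members were). The median log2 fold change of those tested was 1.24 beside 0.66. Sense starts fell in 7 of the 11, beside 28.8% of all tested sense strands, and the part of highly used positions in this was not tested. ISA1-HSP104 (chrXII:88156-88622, plus strand), before the gene of the disaggregase, had 17 and 16 antisense counts in BY4741 and 143 and 136 in set2Δ, or 72.2 and 83.6 CPM against 185 and 210. Its antisense log2 fold change was 1.34 (standard error 0.25, adjusted p = 5.24e-07), its sense starts changed by −0.36 (adjusted p = 0.0969) and the strands differed by 1.70 (adjusted p = 1.96e-05). SYH1-SSE1, before the gene of an Hsp70 exchange factor, had 9 and 10 against 74 and 66 (log2 fold change 1.14, adjusted p = 0.00186). POM33-SSA2, before an Hsp70 gene, had 1 and 2 against 23 and 15, a ratio of 3.80 with an interval of 1.21 to 19.2. MER1-SSB2 had 0 and 0 against 9 and 4, at least 1.30-fold higher (adjusted p = 0.0524). Without a BY4741 count, MER1-SSB2 passed the filter through set2Δ alone and could only be higher. The 4 higher members and the list's median include it. RPS8B-SSA4, before a stress-induced Hsp70 gene, was not called with 1 and 3 against 4 and 8.

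Ribosomal protein genes, whose sense starts fell in 48 of 51 members and rose in 1, had 22 members tested on the antisense strand, of which 4 were higher and none lower, beside 29% and 4.02% of all tested members. The median log2 fold change was 0.44 beside 0.66, and over all members 28.8% of tested sense strands fell. Lower sense calls over all members were 475, but 304 without positions of 8 or more counts and 119 with library totals in addition. The part of highly used positions in the sense decreases of this list was not tested. ARF2-RPL35B had 1 and 4 antisense counts in BY4741 and 30 and 36 in set2Δ (log2 fold change 1.96, adjusted p = 0.00253), and YNL095C-RPS7B had 6 and 5 against 41 and 39 (1.12, adjusted p = 0.0274). FRS1-RPL22A (0 and 0 against 5 and 9) was at least 1.4-fold higher, and GYP5-RPL36B (1 and 0 against 14 and 8) had a ratio of 6.60 with an interval of 1.07 to 272. Without a BY4741 count, FRS1-RPL22A passed the filter through set2Δ alone and could only be higher, and the 4 higher members include it. HMF1-RPL34A was not called, with 12 and 2 against 47 and 31, nor was RLM1-RPS6A, with 7 and 7 against 39 and 27.

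Of 9 members before genes of glycolysis and fermentation, 7 were tested and only YGR240C-A-PFK1 was higher, beside 29% of all tested members. Sense starts fell in 8 of the 9, beside 28.8% of all tested sense strands, and the part of highly used positions in this was not tested. PFK1 encodes a subunit of phosphofructokinase, and its interval (chrVII:973735-974576, minus strand) had 39 and 31 antisense counts in BY4741 and 190 and 157 in set2Δ, or 166 and 162 CPM against 245 and 242. The log2 fold change was 0.57 (standard error 0.20, adjusted p = 0.0113), with −0.80 on the sense strand (adjusted p = 9.31e-07). YOL085C-ADH1 (10 and 9 against 25 and 10) and NNR2-GPM1 (5 and 7 against 10 and 12), before genes of alcohol dehydrogenase and phosphoglycerate mutase, were not called, with log2 fold changes of −0.85 and −0.85. The list's median was −0.15, beside 0.66 for all tested members.

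Of 12 members before genes of chromatin and histone modification, 4 were tested and 2 were higher, beside 29% of all tested members. Sense starts rose in 7 and fell in none, beside 31.1% and 28.8% of all tested sense strands. PIN4-SAS3 (chrII:121875-122752, minus strand), before the gene of the NuA3 acetyltransferase, had 6 and 5 antisense counts in BY4741 and 87 and 77 in set2Δ, and 13 and 17 sense counts against 172 and 161. The log2 fold changes were 2.15 (standard error 0.37, adjusted p = 5.38e-08) and 1.73 (adjusted p = 4.14e-11), and their difference of 0.42 was not called (adjusted p = 0.649). LRS4-DOT1, before the gene of the H3K79 methyltransferase, had 13 and 7 against 64 and 55 (log2 fold change 0.83, adjusted p = 0.0309).

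For genes of early termination and decay of noncoding RNA, 5 of 7 members were tested, 3 were higher and none lower (29% and 4.02% over all tested members), and sense starts rose in 4 (31.1%). MSN1-PAP2 had 6 and 5 antisense counts against 68 and 47 (log2 fold change 1.64, adjusted p = 0.000217), and TOS6-TRF5 had 8 and 5 against 60 and 43 (1.24, adjusted p = 0.00518). PAP2 and TRF5 encode the poly(A) polymerases of TRAMP, which marks nuclear RNA for the exosome. RSB1-RAT1, before the gene of the nuclear exonuclease that ends transcription, had 9 and 3 against 73 and 45 (1.55, adjusted p = 0.000315). PHO80-RRP6, before the gene of the nuclear exosome's own exonuclease, was not called, with 15 and 11 against 45 and 38 (−0.06, adjusted p = 0.894). Of 5 members before genes of hexose transport, 3 were tested, with adjusted p of 0.159 for ANY1-HXT2 (0 and 1 antisense counts against 7 and 9), 0.409 for PAL2-HXT5 (0 and 2 against 7 and 8) and 1.00 for YFL012W-HXT10 (6 and 3 against 20 and 10).

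Members that run antisense into a gene of chromatin or histone modification were looked at after their values were seen. Of 15 such members 8 were tested, 7 were higher and none was lower (29% and 4.02% over all tested members). This is a description of a list picked for its values and supports nothing. HTA1-ADK1, beside a histone H2A gene, had 48 and 28 antisense counts in BY4741 and 205 and 166 in set2Δ (log2 fold change 0.55, adjusted p = 0.0121), and its sense starts fell by 1.09. CHD1-PAB1, beside the gene of a nucleosome remodeler, had 6 and 8 against 63 and 55 (log2 fold change 1.33, adjusted p = 0.00135), and its sense starts fell by 0.77. The other higher members were SET2-ASG7, RPD3-AAD14, UME1-MKK2, RLF2-MCM4 and EAF3-SDD4, of which SET2-ASG7 and RPD3-AAD14 had no BY4741 count, so that they passed the filter through set2Δ alone, and UME1-MKK2 had 1. Of 48 members that run into a ribosomal protein gene 19 were tested, 3 were higher and 3 lower, beside 29% and 4.02% of all tested members. Of the lower, 2 were RPL36B-ATG41 and RPL19B-LSM2, and this list too was looked at after values were seen.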

How the data were processed

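Capped RNA 5′ ends of 2 BY4741 and 2 set2Δ libraries were analysed. Per the labels and the study's methods, 10 µg of total RNA was ligated to an oligo with a random 8 nt barcode after decapping, poly(A) purified and read over 50 nt, and reads were aligned to R64-1-1 with Novoalign, without reads of several alignments or soft-clipped 5′ bases. The submitters' processing notes also name CASAVA 1.8.2. The authors deposited whole-number counts of 5′ ends per base and strand, one set per library, without normalization. Whether barcode duplicates were collapsed is not given in the sources used here, and intervals of shares cover counting error only.

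Minus-strand positions were moved 42 bp to the right, where 77.0 to 78.8% of positions with at least 5 counts held a pyrimidine-purine pair, as against 23.4 to 23.8% as listed and 80.8 to 85.0% on the plus strand. Counts were summed per interval and strand from the RefSeq annotation of R64, with adjacency over all gene biotypes. A long terminal repeat or Ty element lay in 26 members, and 67 had under 90% of bases starting a unique 43 bp sequence, of which 6 were higher. The depth was 375442 to 1267578 counts per library, and replicates differed by 1.29 times (BY4741) and 1.09 times (set2Δ) the counting variance.

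All interval strands that reached 10 counts in the sum of the 4 libraries (5058) were fitted in 1 table with edgeR 4.0.16 (quasi-likelihood test, TMM, Benjamini-Hochberg over all rows, adjusted p below 0.1, the study's threshold) in R 4.3.3. CPM are counts per 1000000 of the TMM-scaled sum of these rows. The strands were compared in 1 model with library and strand as factors. Standard errors and adjusted p-values in the text are from these fits. Shares were compared with exact permutation tests (scipy 1.17.1, numpy 2.4.6, pandas 2.3.3, Python 3.11.15), and figures used matplotlib 3.10.9. Ratios of members with 1 to 3 BY4741 counts carry exact 95% binomial intervals. The study's methods name DESeq2, used here as an alternative (1.42.0). The fits were tested on simulated data.

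Named intervals are the 10 called members with the largest and the 5 with the smallest antisense log2 fold change (strains not overlapping, and an average of 20 counts or more in the strain with the higher CPM), the 5 highest in BY4741, the 5 largest and 5 smallest called differences of strands (an average of 20 antisense counts or more in either strain), the promoters of TPI1, PPT1, SER3, PHO84, FMP27 and SET2 where they are members (TPI1 only), and up to 4 examples for each gene list of the downstream gene. SET2-ASG7, the other members named by their upstream gene's list, MER1-SSB2, FRS1-RPL22A and GYP5-RPL36B were named after their values were seen. The members and lists were chosen with earlier results of these data known. Alternatives were other tests, scalings, filters, interval limits and ways of counting, a replicate block and each library left out. No test combines members into a score.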

Additional observations from a re-analysis of the deposited data

How the results depend on the processing

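Counts are given as members higher and lower in set2Δ, with 231 and 32 on the antisense strand, 513 and 475 on the sense strand and 154 and 34 for the difference of strands in the reported analysis. DESeq2, with an adjusted p for 405 of 797 members, gave 64 and 11 for antisense starts and 189 and 403 for sense starts (31.9% higher, as against 51.9%). Scaling moved the balance of calls. Antisense calls were 120 and 64 with TMM on antisense rows alone (65.2% higher, as against 87.8%), 269 and 17 with library totals (65.1% higher among sense calls), and 331 and 13 scaled to the sense counts of the members, which gave 858 and 270 for sense starts (76.1% higher). The median log2 fold change of all rows went from 0.22 to −0.19, 0.44 and 0.64 under these settings and that of antisense rows from 0.66 to 0.25, 0.87 and 1.07.

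Counting each used position once gave 133 and 7 antisense, 119 and 247 sense (32.5% higher) and 14 lower differences, an antisense share that rose by 5.63 points, a part at the downstream gene that changed by −1.39 points, as against −2.82, and a zone of 100 to 300 bp that gained 2.17 points. Leaving out positions with 8 or more counts gave 95 and 52 antisense (64.6% higher), 288 and 304 sense and 61 higher differences, with 2.43 points for the share and 5.0 for the zone. With library totals in addition, an alternative added after the data were seen, there were 267 and 15 antisense and 873 and 119 sense calls (88.0% higher), with a median of all rows of 0.80. An exact binomial test of the summed counts, also added afterwards, gave 198 and 40 antisense calls and kept 35 of the 56 without BY4741 counts. Libraries thinned to the smallest depth gave 124 and 18 antisense calls and 100 and 21 differences. Leaving out 50 bp beside each gene gave 92 higher differences and 4.06 points for the share. Leaving out upstream genes under 500 bp gave 20 lower antisense calls and 7.67 points for the zone. An adjusted p of 0.05 gave 19 lower differences. The cause of these changes was not tested.

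Leaving out 1 library gave 135 to 161 higher and 18 to 33 lower antisense calls, with 367 to 400 higher and 417 to 475 lower sense calls, and 1 to 99 higher and 0 to 23 lower differences. The lowest counts of differences were 2 without set2Δ replicate 1 and 1 without set2Δ replicate 2. The difference in the antisense share then ranged from 3.09 to 3.72 points.

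Equal replicate numbers of the strains share only a number, and the correlation of the replicate differences was −0.00827 over 3947 rows and 2 pairs. With the replicate number as a block there were 171 higher antisense calls, all among the 231, 24 lower antisense calls, 467 and 455 sense calls and 132 and 24 differences.

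Among 570 values of 25 named intervals, 508 kept direction and call, 25 lost the call and 9 gained one in the same direction. The 28 that changed sign were in 5 intervals without an antisense call, and 4 of these values, of RPL34A-FCY2 and SNF11-TPS2, passed the threshold. RPL34A-FCY2 was 0.203 with library totals, 0.407 scaled to sense counts, 0.0418 without a filter, 0.0803 with positions counted once, 0.325 without high positions and 0.996 without them and with library totals, and −0.0513 to 0.00833 with 1 library left out. SNF11-TPS2 was 0.178 with library totals, 0.381 scaled to sense counts, 0.0174 without a filter, 0.0337 without high positions, 0.701 without them and with library totals, 0.173 when thinned and 0.0122 without the highest position, and −0.274 to 0.269 with 1 library left out. DET1-TPI1 was 0.219 with library totals, 0.00851 with TMM on sense rows, 0.421 scaled to sense counts, 0.0585 without a filter, 0.0163 with positions counted once and 0.219 without high positions and with library totals, and −0.0864 to 0.0620 with 1 library left out. With TMM on antisense rows FLR1-DSF2 was −0.00761 and YPT1-ACT1 −0.218. FLR1-DSF2 was −0.0421 without high positions and −0.170 to 1.75 with 1 library left out.

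With 2 libraries a strain and a median of 0 or 1 antisense counts a member in BY4741, most members could not be tested, and a missing call does not show that a member kept its level. p-values measure the spread between these libraries only.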
